A study of Rattus norvegicus with 8 samples.

Results

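Cxcr4, Cxcl12 and Ackr3 were picked by symbol from the gene list of the deposited count matrices, where each symbol occurred once (Cxcr4, ENSRNOG00000003866; Cxcl12, ENSRNOG00000013589; Ackr3, ENSRNOG00000019622), so 3 of 32623 genes were followed. Cxcl12 encodes a chemokine made by endothelial and other stromal cells, and its receptor CXCR4 signals through inhibitory G proteins to move leukocytes and their precursors along the ligand. ACKR3 also binds CXCL12, but it recruits arrestin rather than G proteins and takes the ligand up into the cell. In the central nervous system the axis is known for holding and guiding immune cells at vessels and for guiding precursor cells.

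Single-cell RNA sequencing had been run on the thoracic spinal cord of 8-week-old female Wistar rats, 7 days after operation. In the 3 injured groups a 10 g weight fell on the exposed cord, with a drop of 12.5 mm for mild, 25 mm for moderate and 50 mm for severe injury; sham rats were opened by laminectomy and not hit. Each of the 4 groups held 2 libraries, and no transgene or test drug was named. Per the study's methods, the rats had pentobarbital as anaesthetic, then daily injections of buprenorphine (3 days) and cefazolin (7 days). Nothing in the labels says whether the 2 libraries of a group came from separate animals, so every p-value below measures only the spread between libraries, which may be technical.

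Of 68658 deposited cells, 55455 passed the filters, with 2336 to 10016 cells and 23535282 to 99689125 UMIs (unique molecular identifiers, 1 per captured transcript) per library. Median UMIs per cell ran from 2745 to 10836, and pairs of libraries shared 5 to 40 cell barcodes. The cells fell into 25 clusters, of which 22 could be named by markers as 11 cell types. The 2 sham libraries stood apart, also from each other. In sham 1, 4786 of 9190 cells were neutrophils, and the neutrophil gene S100a8 reached 1471 to 2791 CPM (counts of a gene scaled to a sum of 1000000 UMIs over the cells pooled) even in its microglia and macrophage states, against 9.58 to 193 CPM in the other 7 libraries. In sham 2 only 29 cells were called fibroblasts, and they carried 3980 CPM of the pericyte gene Rgs5. Its macrophage states, with 13.4 CPM of Fn1 and 103 CPM of P2ry12, went against their name. The part of these features in the comparisons with sham was not tested, and those comparisons are given with the values of both sham libraries.

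The stretch of 150 bases before each gene's start is shown because Cxcr4 was carried mainly by other cell types than Cxcl12 and Ackr3. It was taken from RefSeq (GRCr8, 5′ to 3′ on the gene's strand). Capitals mark GCATGC, the centre of the palindrome bound by NRF1, and the TATA box letters TATAAA, each searched on both strands. The region is chr13:42634289-42634438 (minus strand) for Cxcr4, chr4:152060631-152060780 (plus) for Cxcl12 and chr9:98247204-98247353 (plus) for Ackr3.
Cxcr4: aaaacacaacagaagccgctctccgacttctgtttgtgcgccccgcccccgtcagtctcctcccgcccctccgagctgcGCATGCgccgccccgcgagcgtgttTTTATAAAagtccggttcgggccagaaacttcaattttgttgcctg
Cxcl12: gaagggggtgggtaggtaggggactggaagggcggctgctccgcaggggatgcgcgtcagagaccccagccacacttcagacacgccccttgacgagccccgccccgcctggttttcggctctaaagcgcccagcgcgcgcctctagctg
Ackr3: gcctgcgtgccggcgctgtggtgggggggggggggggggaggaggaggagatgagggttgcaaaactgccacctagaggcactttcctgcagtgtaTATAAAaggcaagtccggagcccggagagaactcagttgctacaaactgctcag
GCATGC began 71 bases before the Cxcr4 start and was found in neither of the other promoters; 6.15% of 33469 rat promoters held it in the 250 bases before the start. TATAAA began 44 bases before the Cxcr4 start, where it overlaps its own reverse TTTATA, and 54 bases before the Ackr3 start, and 12.9% of promoters held it. The letters ACGTG, a form of the core of the hypoxia response element, were in none of the 3 and in 16.6% of all promoters. The other form, GCGTG, was not searched. It can be read in the printed bases of all 3, in Cxcl12 as its reverse CACGC. A match of letters describes the sequence and says nothing of binding.

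Cxcr4 was highest in lymphocytes and myeloid cells and low in every neural and stromal type. B cells reached 753 CPM ± 309 (SD, n = 4 libraries; levels were taken only from libraries holding 20 or more such cells), neutrophils 573 ± 500 (n = 4) and T cells/NK cells 443 ± 219 (n = 7). In B cells the values were 529 CPM in sham 1, 877 in moderate 1, 1133 in severe 1 and 475 in severe 2. Dendritic cells followed with 222 CPM ± 87.2 (n = 6) and macrophages/microglia with 154 ± 111 (n = 8). All other named types stayed at 20.4 CPM or below on average: endothelial cells 20.4 ± 6.34 (n = 4), astrocytes 14.6 ± 11.7 (n = 7), oligodendrocyte precursors 10.6 ± 6.05 (n = 8), fibroblasts 6.53 ± 4.64 (n = 8), oligodendrocytes 5.07 ± 5.12 (n = 8) and erythrocytes 0.912 ± 0.831 (n = 3). An unnamed cluster of 5618 cells led by G0s2, whose nearest markers were those of neutrophils but whose UMI numbers were too low to name it, held 391 CPM ± 197 (n = 7). 

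Neutrophils gave the widest range. Their Cxcr4 was 65.0 CPM in sham 1, which held most of the cells named neutrophils. It was 426 CPM in severe 2, 544 in moderate 1 and 1259 in moderate 2, where these cells numbered 21 to 32. The G0s2 cluster, whose nearest markers were those of neutrophils, was not counted among them. That cluster held 2133 cells in mild 1, 949 in moderate 2 and 1104 in severe 1, against 36 in sham 1. Its Cxcr4 was 298 to 729 CPM in the injured libraries and 69.8 CPM in sham 1. No pair of neighbours in the order of the 11 types passed after correction over the 10 pairs. The test was an exact sign-flip permutation test, two-sided, of the within-library differences. Pairs found together in only 3 or 4 libraries cannot give an exact p below 0.25 or 0.125, so they could not pass. Macrophages/microglia against endothelial cells, at 154 and 20.4 CPM, was such a pair (4 libraries). A single pair at the smallest exact p of 8 libraries, 0.00781, would also miss the threshold after this correction. Nearest to passing were T cells/NK cells above dendritic cells, in 6 of 6 libraries by 1.16 ± 0.46 (SD) on the log2 scale. Their exact p was 0.0312, the smallest that 6 libraries allow (adjusted p = 0.156). Oligodendrocyte precursors lay above fibroblasts in 7 of 8 libraries (adjusted p = 0.156 by the same test).

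**Figure D1:**
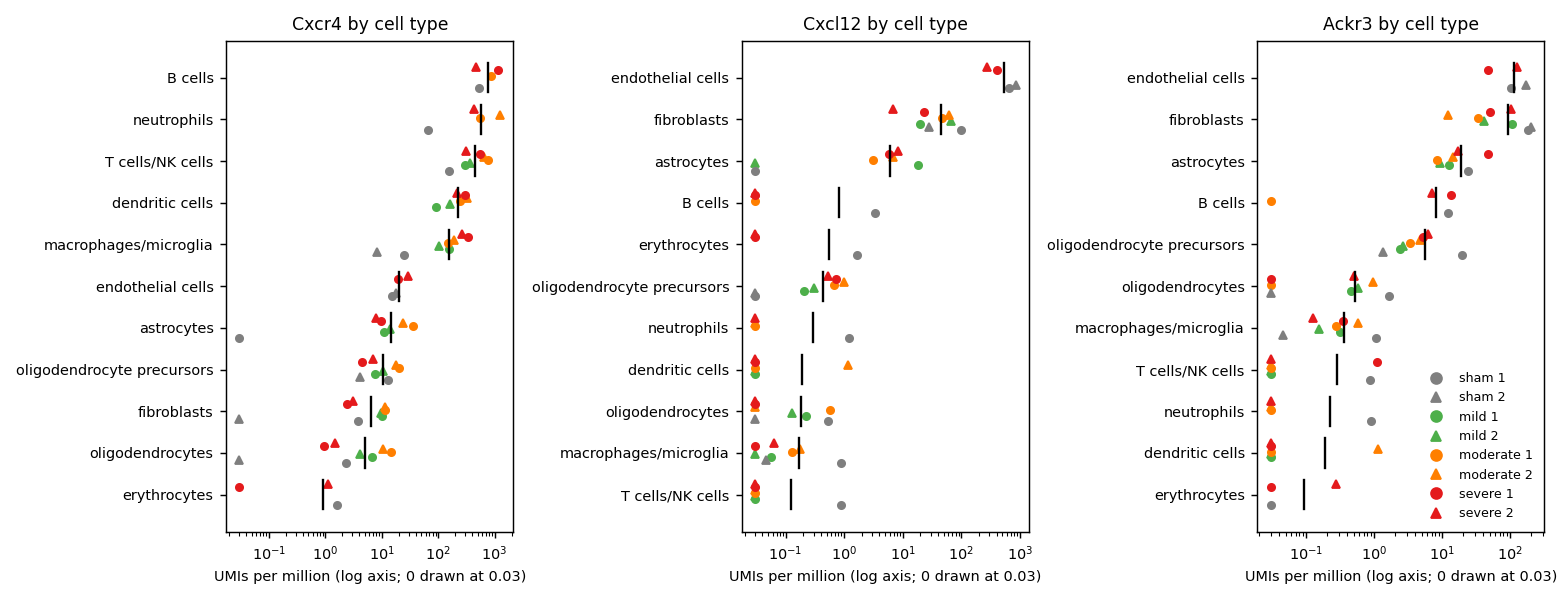
Level of Cxcr4, Cxcl12 and Ackr3 (CPM, log axis) in each named cell type; each point is 1 library that held 20 or more such cells, coloured by injury group, and the bar is the mean over libraries. Cxcr4 spans B cells at 753 CPM to erythrocytes at 0.912 CPM, while Cxcl12 and Ackr3 lie high in endothelial cells and fibroblasts.

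Cxcl12 was carried by endothelial cells, at 658 CPM in sham 1, 849 in sham 2, 399 in severe 1 and 273 in severe 2 (545 ± 258). The mild and moderate libraries held 1 to 19 endothelial cells each, too few for a level. Fibroblasts came next with 44.1 CPM ± 30.9 (n = 8) and astrocytes with 6.08 ± 6.29 (n = 7, 2 of them at 0). Every other named type averaged under 1 CPM, and the G0s2 cluster had no Cxcl12 UMI in any of the 7 libraries with at least 20 of its cells. Endothelial cells exceeded fibroblasts in 4 of 4 libraries by 4.19 ± 1.10 on the log2 scale, but 4 libraries cannot give an exact p below 0.125 (adjusted p = 0.417). Fibroblasts lay above astrocytes in 6 of 7 libraries (2.98 ± 2.70, adjusted p = 0.234).

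Ackr3 was likewise highest in endothelial cells and fibroblasts, which lay close together. Endothelial cells held 104 CPM in sham 1, 173 in sham 2, 46.6 in severe 1 and 128 in severe 2 (113 ± 52.8), beside the 92.1 ± 71.0 of fibroblasts (n = 8). Within libraries the endothelial value was higher in 1 of 4 (log2 difference -0.21 ± 0.47, exact p = 0.5). Astrocytes reached 19.0 CPM ± 13.5 (n = 7), the G0s2 cluster 8.99 ± 10.4 (n = 7), B cells 8.26 ± 6.17 (n = 4) and oligodendrocyte precursors 5.70 ± 5.83 (n = 8). The astrocyte value rested on part of the cluster. At a finer resolution 271 of its 886 cells fell into a separate cluster that could not be named, and these held all 105 Ackr3 UMIs, 39 of the 44 Cxcl12 UMIs and 97 of the 107 Cxcr4 UMIs, whereas the other 615 cells had no Ackr3 UMI. Oligodendrocyte precursors exceeded mature oligodendrocytes (0.520 ± 0.579) in 8 of 8 libraries, by 1.90 ± 0.68 on the log2 scale (p = 0.00781 by the exact sign-flip permutation test, adjusted p = 0.0781). Macrophages/microglia, T cells/NK cells, neutrophils, dendritic cells and erythrocytes averaged 0.363 CPM or less.

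Because types differ in depth, cells were also thinned to 1000 UMIs each, leaving out shallower cells, and the share of cells with at least 1 UMI of a gene was taken (mean over libraries with at least 20 cells left). Cxcr4 was seen in 53.7% of thinned B cells, 30.3% of T cells/NK cells, 20.4% of dendritic cells and 13.9% of macrophages/microglia. It was seen in 0.659% of oligodendrocytes and 0.402% of erythrocytes, types taken as background. Whether these types lack the gene was not tested. Unthinned, those shares were 70.7%, 52.1%, 57.4%, 47.1%, 6.05% and 0.583%. Median UMIs per cell were 2006 to 2605.5 in B cells and 7754 to 18355 in oligodendrocytes. The thinned shares of endothelial cells (1.10%), astrocytes (1.16%), oligodendrocyte precursors (1.10%) and fibroblasts (0.483%) were near that background. Cxcl12 was seen in 30.02% of thinned endothelial cells and 3.98% of fibroblasts (57.3% and 20.7% unthinned), and in 0 of 456 thinned B cells, which allows a share of cells with a UMI of up to 0.658% at that depth (0.291% unthinned, from 3 UMIs in sham 1). Ackr3 was seen in 9.19% of thinned fibroblasts, 7.14% of endothelial cells and 1.29% of astrocytes (34.3%, 32.4% and 7.5% unthinned), with 1.23% in B cells and 0 of 1099 in erythrocytes, which allows up to 0.273%. These limits cover counting error only.

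Counted as UMIs, Cxcr4 came mostly from the type with the most cells, while Cxcl12 and Ackr3 came from the smaller stromal types. Of 65614 Cxcr4 UMIs, 85.3% came from the 26322 macrophages/microglia. Sham 1 differed: neutrophils gave 45.0% of its 1936 Cxcr4 UMIs, B cells 24.8% and T cells/NK cells 18.3%. Of 3534 Cxcl12 UMIs, 59.2% came from the 429 endothelial cells and 36.7% from fibroblasts. The endothelial part was 98.0% in sham 2 and 66.5% in sham 1, but 15.4% in mild 1 and 0% in moderate 2, where 1 endothelial cell was recovered. Of 3616 Ackr3 UMIs, 72.7% came from fibroblasts, 12.1% from endothelial cells and 5.89% from oligodendrocyte precursors, which gave the largest part (46.7%) in moderate 2. Numbers of cells depend on how each tissue came apart, which was not measured.

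Fibroblasts formed 2 clusters, and Cxcl12 separated them while Ackr3 did not. The cluster led by Dcn, Igfbp7 and Myoc carried 79.6 CPM ± 53.3 of Cxcl12, against 8.92 ± 7.88 in the cluster led by Igfbp5, Mgp and Col3a1 (n = 7 libraries with at least 20 cells of both). The paired values were 186 and 14.0 CPM in sham 1, 37.6 and 10.7 in mild 1, 75.7 and 5.46 in mild 2, 75.2 and 23.7 in moderate 1, 77.5 and 2.0 in moderate 2, 88.5 and 4.12 in severe 1, and 17.1 and 2.44 in severe 2. The first cluster was higher in 7 of 7 libraries, by 3.11 ± 1.21 (SD) on the log2 scale (exact sign-flip permutation test, two-sided, p = 0.0156, the smallest possible, adjusted p = 0.0208 over 4 comparisons). Ackr3 was 78.5 CPM ± 78.5 in the first cluster and 77.2 ± 43.3 in the second, and higher in the first in 2 of 7 libraries (log2 difference -0.52, from -2.07 to 0.86 over the libraries, p = 0.219 by the same exact test). The endothelial genes Cldn5 and Flt1 reached 0 to 2.54 and 17.1 to 105 CPM in the Cxcl12-rich cluster of those 7 libraries, against 2536 to 5320.3 and 507 to 2117 CPM in endothelial cells.

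Mural cells lay within the first cluster. With finer clusters, 75 of its cells separated by markers of pericytes and smooth muscle, 36 of them in sham 1 and 20 in sham 2. They held Ackr3 at 147 and 143 CPM in those libraries and 1 Cxcl12 UMI in all. Those 20 cells were most of the 29 sham 2 fibroblasts, so the fibroblast level of sham 2 is in large part that of mural cells.

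Within the macrophage lineage, Cxcr4 marked macrophage states rather than microglia. Macrophages/microglia of each library were sub-clustered alone and the sub-clusters put in 2 classes by their markers, macrophage states (infiltrating or lipid-laden, 13045 cells) and microglia states (homeostatic or activated, 5947 cells); Cxcr4 took no part in the clustering. In macrophage states Cxcr4 was 63.3 CPM in sham 1, 14.9 in sham 2, 269 in mild 1, 213 in mild 2, 266 in moderate 1, 351 in moderate 2, 358 in severe 1 and 428 in severe 2. In microglia states it was 2.35, 0.784, 14.5, 5.15, 21.2, 32.4, 8.46 and 18.6 CPM in the same order. Macrophage states were higher in 8 of 8 libraries by 4.17 ± 0.77 (SD) on the log2 scale (exact sign-flip permutation test, two-sided, p = 0.00781, the smallest possible, adjusted p = 0.0208). Leaving out each library in turn gave 4.02 to 4.31, with 4.31 without sham 2. The sham 2 macrophage states went against their name, as given above. Its microglia states were an unnamed sub-cluster led by Sparc. That sub-cluster lay nearest to the activated list but had more leading markers of the homeostatic list. Macrophage states gave 48.2% to 95.1% of the lineage's Cxcr4 UMIs in a library and microglia states 0.298% to 5.04%, the rest coming from sub-clusters in neither class.

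Microglia states were also set against oligodendrocytes, a type taken as background for Cxcr4. They were higher in 7 of 8 libraries by 1.18 ± 1.02 on the log2 scale (exact p = 0.0156, adjusted p = 0.0208). Oligodendrocytes held 2.37 CPM in sham 1, 0 in sham 2, 6.64 in mild 1, 4.07 in mild 2, 14.3 in moderate 1, 10.7 in moderate 2, 0.963 in severe 1 and 1.5 in severe 2, so both types were highest in the moderate libraries. Thinned to 1000 UMIs, 1.06% of microglia and 21.3% of macrophage states showed a Cxcr4 UMI (9.39% and 69.2% unthinned).

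Among named states the infiltrating monocyte-like macrophages (defined by genes such as Fn1 and Vcan) and the lipid-laden macrophages (Spp1, Fabp4) held like levels. With sub-clusters of each library alone, Cxcr4 was 340 CPM ± 98.4 in the first and 316 ± 86.4 in the second over 6 libraries, higher in the first in 3 of 6 (log2 difference 0.10 ± 0.47, exact p = 0.812). With all libraries clustered together, lipid-laden macrophages exceeded homeostatic microglia in 4 of 4 libraries by 4.50 ± 0.94 (237 against 10.9 CPM), where the smallest exact p is 0.125 (adjusted p = 0.5). Infiltrating macrophages exceeded homeostatic microglia by 4.23 in 2 of 2 libraries, and activated microglia did so by 0.82 in 2 of 2. With 2 libraries an exact test cannot go below 0.5. The activated value of mild 2 rested on 4 UMIs from 21 cells. The homeostatic value of moderate 1 rested on 3 UMIs from 33 cells. Stressed inflammatory against lipid-laden macrophages could be compared in 1 library, sham 2 (144 CPM from 28 cells against 228 CPM from 23). Most stressed inflammatory macrophages lay in severe 1 and severe 2, at 397 and 411 CPM (871 and 2066 cells). Lipid-laden macrophages numbered 13 and 7 there. Border-type macrophages could be compared with homeostatic microglia in no library. Of the 14 sub-clusters of this joint clustering, 9 were made up to 80% or more by a single library. Proliferating cells, which were kept out of both classes, held 39.5 CPM ± 35.1 (n = 8) and border-type macrophages 67.7 ± 40.7 (n = 3). Unnamed sub-clusters in neither class held up to 583 CPM (27 cells led by G0s2 in severe 2). Those led by Pltp in severe 1 (319 cells) and RT1-Da in moderate 2 (698 cells) held 465 and 211 CPM. The others held 1.44 to 129 CPM. Together, cells in neither class held from 5.59 CPM in sham 2 to 399 CPM in severe 1.

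**Figure D2:**
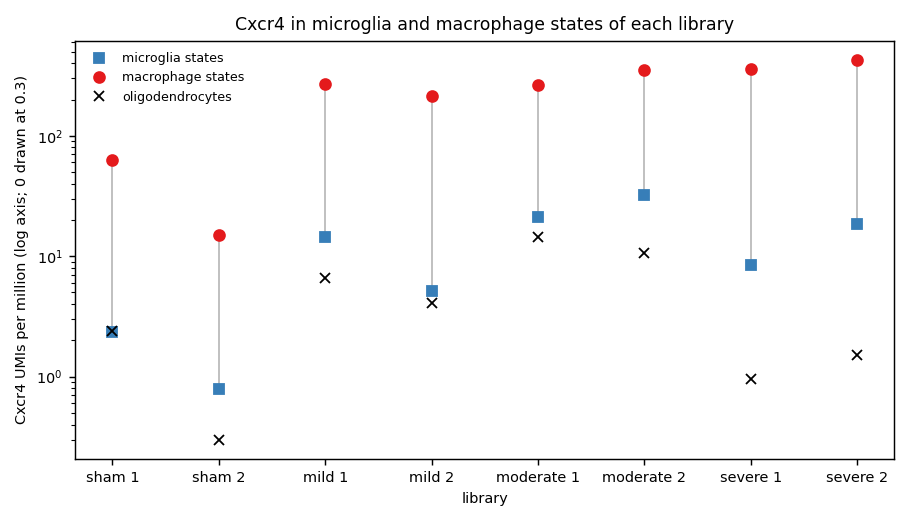
Cxcr4 (CPM, log axis) in microglia states and macrophage states of each library, sub-clustered alone; each line joins the 2 classes of 1 library, coloured by injury group. All 8 lines rise, from 0.784 to 32.4 CPM in microglia states to 14.9 to 428 CPM in macrophage states. The macrophage states of sham 2 (14.9 CPM) went against their name.

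After injury, Cxcr4 rose in macrophages/microglia as a whole. It was 24.3 and 8.09 CPM in the sham libraries, 154 and 104 in mild, 148 and 192 in moderate, and 333 and 266 in severe, so no injured library overlapped with sham. In edgeR's quasi-likelihood test on summed counts, with Benjamini-Hochberg adjustment over 13279 genes, the log2 difference from sham was 3.19 ± 0.45 (SE) in mild (adjusted p = 0.0211), 3.56 ± 0.46 in moderate (adjusted p = 0.0256) and 4.80 ± 0.48 in severe (adjusted p = 0.00433). In the same comparisons 6.24%, 1.6% and 7.62% of all genes passed in either direction. The comparisons share the sham libraries. Without mild 1 or mild 2 the mild call was lost (adjusted p = 0.15 and 0.109), and without any 1 of the 6 injured libraries the moderate call was lost (adjusted p = 0.0596 to 0.152), whereas the severe call held without each of the 8 libraries in turn. Fitted on the 2 compared groups alone, none of the 3 passed (adjusted p = 0.122, 0.228 and 0.0501).

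The injured groups did not separate from each other at the threshold. Severe exceeded moderate by 1.24 ± 0.41 (adjusted p = 0.156) and mild by 1.61 ± 0.42 (adjusted p = 0.0943) with no overlap of libraries, and 1.5% and 2.3% of genes passed in those comparisons. Both passed when sham 1 or sham 2 was left out (adjusted p = 0.0291 and 0.0308 against moderate, 0.0109 and 0.0113 against mild). Moderate and mild overlapped (0.37 ± 0.41, adjusted p = 0.731). In that comparison edgeR called 0% of genes, although 1728 had an unadjusted p under 0.05 and DESeq2 called 234.

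The makeup of the type moved with the injury. Macrophage states were 31.6% and 44.8% of the 2 classes in the sham libraries and 83.3% and 73.8% in mild. They were 67.0% and 63.3% in moderate and 80.6% and 70.6% in severe. Per library, 15.9% to 41.6% of the cells were in neither class. The 44.8% of sham 2 counts macrophage states that went against their name. With all libraries clustered together, 1836 of the 1962 macrophages/microglia of sham 2 were named homeostatic microglia. The list for homeostatic microglia summed to 728 to 1968 CPM in sham and 363 to 580 CPM in injured libraries (11 of 12 genes found), and the neutrophil list to 197 to 6682 CPM in sham and 52.3 to 332 in injured ones (15 of 15). The lists for B cells and for T cells/NK cells, the types richest in Cxcr4, summed to at most 34.8 and 67.4 CPM, both in sham. Median UMIs per cell were 10038.5 to 10280 in sham, 8778 to 12057 in mild and moderate, and 14927.5 to 19549 in severe. The part of these shifts in the rise was not tested beyond the values within each class.

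Within each class Cxcr4 was higher in every injured library than in either sham library. In microglia states the log2 difference from sham was 2.88 ± 0.70 in mild (adjusted p = 0.108), 4.25 ± 0.70 in moderate (adjusted p = 0.072) and 3.72 ± 0.70 in severe (adjusted p = 0.0418). There 0.0952%, 0.114% and 1.32% of 10499 genes passed. The sham values rested on 7 and 6 UMIs. In macrophage states the differences were 2.64 ± 0.66, 3.01 ± 0.67 and 3.68 ± 0.69 (adjusted p = 0.109, 0.144 and 0.0633). In mild and moderate edgeR called 0% of 11639 genes there (2560 and 1769 had an unadjusted p under 0.05, DESeq2 called 923 and 446), and 1.13% in severe. Without sham 2, whose macrophage states go against their name, all 3 passed at 1.91, 2.29 and 2.96 (adjusted p = 0.0339, 0.036 and 0.0149), and without sham 1 they passed at 4.12, 4.50 and 5.17.
Other lists moved within the classes. The list for lipid-laden macrophages (11 of 12 genes found) summed to 8325 to 13203 CPM in sham and 40782 to 66358 CPM in injured libraries in macrophage states. The list for stressed inflammatory macrophages (11 of 12) summed in microglia states to 2206 to 2501 CPM in sham, 4257 to 6167 in mild and moderate, and 15123 to 17135 in severe, where median UMIs per cell were 14249.5 to 19153 against 8184 to 13888.5 in sham. In microglia states the lipid-laden list summed to 2138 to 10744 CPM in sham and 7866 to 9712 in mild. It summed there to 13803 to 22118 CPM in moderate and 7757 to 14790 in severe. The list for infiltrating monocyte-like macrophages (9 of 12) summed in microglia states to 1675 to 2749 CPM in sham and 1849 to 4795 after injury. The part of these shifts in the differences was not tested. Between injured groups Cxcr4 passed in neither class. There 0.00952% of genes passed in moderate against mild, 0.867% in severe against moderate and 1.17% in severe against mild in microglia states, and 0.662% and 0.636% in the latter pair of comparisons in macrophage states. The call in microglia states was lost with a block for the replicate number (3.72 ± 0.76, adjusted p = 0.0765) and without mild 1, moderate 1, moderate 2, severe 1 or severe 2 (adjusted p = 0.0517 to 0.321). That of mild was gained without sham 1, and that of moderate without either sham library.

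T cells/NK cells could be compared between the injured groups only, since sham 2 held 5 of them. Cxcr4 was 154 CPM in sham 1, 299 and 371 CPM in mild, 771 and 652 in moderate, and 543 and 312 in severe. Moderate lay above both other groups without overlap, but neither difference passed (moderate against mild 1.05 ± 0.36, adjusted p = 0.209; severe against moderate -0.49 ± 0.34, adjusted p = 0.546; edgeR). Of 6604 genes 0.394% and 1.91% passed in those comparisons. The type consisted of 2 clusters that split by group. Mild and moderate cells lay almost wholly in one (239, 70, 187 and 64 cells, with 5, 1, 6 and 4 in the other), and severe cells in the other (192 and 244, with 5 and 5), so severe was compared across clusters.

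Cxcl12 was lower in severe than in sham in both stromal types without passing the test. Endothelial cells held 658 and 849 CPM in sham and 399 and 273 in severe (-0.89 ± 0.35, adjusted p = 0.302), where 0.305% of 7224 genes passed. Fibroblasts held 100.1 and 28.0 CPM in sham, 19.4 and 66.0 in mild, 46.3 and 62.6 in moderate, and 23.3 and 6.72 in severe (severe against sham -2.12 ± 0.75, adjusted p = 0.154). In fibroblasts 0.433%, 1.83% and 2.17% of 11326 genes passed in mild, moderate and severe against sham. The sham 2 value came from 3 UMIs, and without sham 1 the severe difference was -0.16. The mix of the 2 fibroblast clusters also differed. The Cxcl12-poor cluster led by Igfbp5 made up 381 of 475 and 215 of 304 fibroblasts in severe, 267 of 457 and 1 of 29 in sham, 174 of 260 and 21 of 108 in mild, and 284 of 499 and 35 of 152 in moderate. Within the Cxcl12-rich cluster severe 1, at 88.5 CPM, lay above every mild and moderate library and severe 2, at 17.1 CPM, below them.

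Ackr3 in fibroblasts was lowest in the moderate group. It was 182 and 205 CPM in sham, 108 and 42 in mild, 34.1 and 12.3 in moderate, and 50.7 and 102 in severe. Every injured library lay below both sham libraries, and the differences from sham were -1.27 ± 0.59 in mild (adjusted p = 0.26), -3.02 ± 0.63 in moderate (adjusted p = 0.0522) and -0.94 ± 0.58 in severe (adjusted p = 0.38). The moderate difference was just outside the threshold and passed with a block for the replicate number (-3.06 ± 0.60, adjusted p = 0.0376), without severe 2 (adjusted p = 0.0492), in DESeq2 (adjusted p = 0.00015) and in 3 other settings. Severe was above moderate by 2.08 ± 0.59 (adjusted p = 0.0907, DESeq2 0.0297). The list for pericytes and smooth muscle summed to 828 to 12610 CPM in sham fibroblasts 310 to 564 in mild, 418 to 960.4 in moderate and 1380.4 to 2242 in severe ones, and mural cells held Ackr3, as given above. Without the mural cells of the finer clusters, the fibroblasts of sham 1 held 183 CPM and sham 2 kept 9 cells, so no fit against sham was made without them. Cxcr4 in fibroblasts stayed at 0 to 11.5 CPM in every library, and 0.892% of genes passed in severe against mild.

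Summed over all kept cells of a library, none of the 3 genes passed in any of the 6 comparisons. Cxcr4 was 45.3 and 8.71 CPM in sham, 123 and 73.8 in mild, 127 and 146 in moderate, and 219 and 190 in severe (severe against sham 3.18 ± 0.67, adjusted p = 0.0989, with 0.554% of 15884 genes called; severe against moderate and mild, with 0.579% and 0.466% called, also missed the threshold). Cxcl12 was 35.6 and 10.4 CPM in sham, 1.53 and 2.19 in mild, 4.04 and 2.81 in moderate, and 14.5 and 4.17 in severe (mild against sham -3.66 ± 0.74, adjusted p = 0.102). Ackr3 was 25.5 and 3.14 CPM in sham and 1.42 to 15.5 after injury. Without sham 1 or sham 2 several of these passed, among them Cxcr4 in severe against sham (4.62 and 2.50) and Cxcl12 in mild against sham (-2.68 and -4.20). In mild against sham edgeR called 0% of genes, with 3718 at an unadjusted p under 0.05 and 2089 called by DESeq2. In such sums, fewer cells of a type and less RNA per cell cannot be told apart.

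Of 46 genes listed for the pathway (ligands, receptors, effectors, regulators and transcription factors), 45 were in the files. In macrophages/microglia 44 were tested, and of these 1 rose and 2 fell in mild against sham, 1 rose and 1 fell in moderate, and 2 rose in severe, with Cxcr4 the one that rose each time. Of all genes 3.56% rose and 2.68% fell in mild, 1.17% rose and 0.437% fell in moderate, and 4.82% rose in severe. The median log2 difference of the list was -0.03, -0.02 and 0.05, beside -0.02, 0.03 and -0.09 over all genes. Elmo1, which works with DOCK proteins to activate RAC in migrating cells, fell from 15.2 and 12.4 CPM in sham to 1.44 and 2.47 in mild (-2.69 ± 0.36, adjusted p = 0.0191) and to 2.97 and 2.55 in moderate (-2.23 ± 0.35, adjusted p = 0.0349). Rgs18, a brake on G protein signalling, fell from 6.65 and 3.30 CPM in sham to 0.727 and 0.558 in mild (-2.77 ± 0.40, adjusted p = 0.0213) and was higher in severe than in mild by 2.92 ± 0.39 (4.15 and 3.34 CPM, adjusted p = 0.0133), a comparison in which 1.38% of genes were higher. Adm, whose peptide adrenomedullin also binds ACKR3, rose from 2.80 and 6.23 CPM in sham to 25.7 and 15.4 in severe (2.55 ± 0.54, adjusted p = 0.0349). In microglia states 40 were tested, and Adm (3.42 ± 0.62, adjusted p = 0.0376) and Cxcr4 rose in severe against sham, as did 0.905% of all genes. In macrophage states none of 42 passed in the 6 comparisons.

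Outside the macrophage lineage few of the list passed. In endothelial cells 1 of 32 did. Cxcl11, a second chemokine ligand of ACKR3 and a ligand of CXCR3, rose from 52.1 and 60.1 CPM in sham to 513 and 429 in severe (3.35 ± 0.34, adjusted p = 0.0102), as did 0.235% of all genes, while the median of the list was -0.05, beside -0.04 over all genes. In T cells/NK cells 34 were tested. Cxcr3, its receptor on activated T cells, was 374 and 198 CPM in mild, 77.6 and 52.6 in moderate (-2.20 ± 0.43, adjusted p = 0.023) and 74.0 and 110 in severe (-1.48 ± 0.38 against mild, adjusted p = 0.0389, where 2.91% of genes passed and 1.21% were lower). Rgs1, which damps chemokine receptor signalling, was 196 and 140 CPM in mild and 766 and 857 in moderate (2.15 ± 0.37, adjusted p = 0.0108). Of all genes 0.348% were higher and 0.0454% lower in moderate against mild. In fibroblasts 1 of 39 passed: Rgs1 was lower in severe (2.82 and 3.10 CPM) than in moderate (37.7 and 21.8 CPM; -2.94 ± 0.40, adjusted p = 0.0112, with 1.84% of genes called and 1.03% lower). These Rgs1 values lay below the 140 to 857 CPM of mild and moderate T cells/NK cells. The part of RNA from other cells in the fibroblast values was not tested. In fibroblasts the list's median in severe against sham was -0.71, beside -0.01 over all genes.

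Across the 11 named types, the 5 genes most like Cxcr4 by Pearson's r of mean log2(CPM + 1), among 5798 genes reaching 50 CPM in a type, were Akna (r = 0.98), Arhgap15, Ptprc, Dusp5 and Ptpn18. Ptprc encodes CD45, found on nearly all leukocytes. Most like Cxcl12 were Angpt2 (r = 0.98), Higd1b, Cgnl1, RGD1310587 and Rgs5, and most like Ackr3 were Col18a1 (r = 0.96), Adgrl2, Lmcd1, Serpinh1 and Sparcl1. Of these, Angpt2 is made by endothelial cells, Rgs5 and Higd1b are pericyte genes, Col18a1 encodes a basement membrane collagen and Serpinh1 a collagen chaperone. Rgs5 and Higd1b were highest in fibroblasts, the type that held the mural cells. Once separated, those mural cells had only 1 Cxcl12 UMI in all. Between the members r was 0.89 for Cxcl12 and Ackr3, -0.29 for Cxcr4 and Cxcl12, and -0.30 for Cxcr4 and Ackr3. The 11 points share their libraries and differ in depth, so these values describe the types only.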

How the data were processed

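The 8 libraries (10x Genomics 3′ chemistry) were deposited as matrices of UMI counts per gene and cell; per the labels and the submitters' processing notes, Cell Ranger and the rat build Rnor_6.0 were used. The counts are not normalized, and 3′ counts do not separate isoforms. The 3 genes, the marker lists and the pathway list were chosen with earlier results of these data known.

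After the study's methods, cells with over 10% mitochondrial UMIs were dropped, then the 7.7% with the highest Scrublet doublet scores (scanpy 1.11.5) and cells beyond 2 SD in UMIs or genes. Seurat 5.3.0 clustered the rest (4000 variable genes without the 3 genes and the pathway list, 15 components, resolution 0.4). Clusters were named by marker lists. After the clusters were seen, monocyte markers were merged with those of macrophages/microglia, MHC class II genes were left out of the leading-gene check, and each library was also sub-clustered alone. The 2-class comparison, the class fits, the fibroblast clusters and the comparison with oligodendrocytes were likewise added after seeing the data.

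Counts were summed per library and type (at least 20 cells) and given as CPM. Paired differences used log2(CPM + 1), which understates changes of low genes, and exact sign-flip permutation tests. Group differences used edgeR 4.0.16 (TMM, quasi-likelihood, all groups in 1 fit, adjusted p threshold 0.05). It was tried on simulated counts for severe against sham in macrophages/microglia. There it recovered 21 of 100 genes changed 2-fold and 83 of 95 changed 4-fold, with 2 false calls. Most 2-fold changes were thus missed in the simulation. CPM in the text are not TMM scaled, the log2 differences are. Alternatives were DESeq2 1.42.0, library size alone, no filter, a replicate block, only the compared groups, no removal of doublets, a pseudocount of 10, at least 50 cells, resolution 0.8 and each library left out. Genes named beyond the 3 were those of the pathway list that passed, the 5 most like each gene, and marker genes.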

Additional observations from a re-analysis of the deposited data

Results flagged for a closer look

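In 8 cases every library of one cell type moved one way between 2 groups and every library of another moved the opposite way; none of these differences was tested, and groups of 2 libraries allow no test for a stray library. Severe against moderate, Cxcr4 was higher in macrophage states (0.67 on the log2 scale) and lower in microglia states (-0.53), in fibroblasts (-1.63) and in T cells/NK cells (-0.49), which sets the types apart by 1.20, 2.30 and 1.16. Severe against mild, macrophage states (1.03) and fibroblasts (-1.53) differed by 2.56 in Cxcr4. Fibroblast Cxcr4 was low, at 11.4 and 11.5 CPM in moderate and 2.45 and 3.1 CPM in severe. Oligodendrocytes, a type taken as background for Cxcr4, moved the same way, from 14.3 and 10.7 in moderate to 0.963 and 1.5 CPM in severe. The part of RNA from other cells in the fibroblast difference was not tested. Moderate and severe T cells/NK cells lay almost wholly in different clusters, as given above. For Ackr3, macrophage states and fibroblasts differed by 2.56 in mild, 6.09 in moderate and 3.13 in severe against sham, and by 3.53 in moderate against mild. In these 4 the macrophage states hardly carried the gene, with 0 and 1 UMI in the sham libraries and at most 21 UMIs in an injured one.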

How the results depend on the processing

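Values are log2 differences, and beyond those named here no alternative changed a direction or a call. The cause of a change was not tested. In DESeq2 Cxcr4 passed in macrophages/microglia in severe against mild (1.64), in microglia states in mild and moderate against sham (2.84 and 4.24), in macrophage states in mild, moderate and severe against sham (2.54, 2.91 and 3.58) and in all cells (1.85, 2.23 and 3.25). So did Ackr3 in fibroblasts in moderate against sham and severe against moderate (-3.03 and 2.11), and Cxcl12 in all cells in mild and moderate against sham and severe against mild (-3.67, -2.85 and 2.62). With no filter on low counts, Cxcr4 passed in macrophages/microglia in severe against moderate and mild (1.22 and 1.55), in microglia states in mild and moderate (2.91 and 4.30), in macrophage states (2.73, 3.09 and 3.77) and in all cells in severe (3.24) against sham. Without that filter Ackr3 in fibroblasts passed in mild and moderate against sham, moderate against mild and severe against moderate (-1.26, -2.98, -1.73 and 2.08), Cxcl12 in fibroblasts in severe against sham and moderate (-2.07 and -1.40), and Cxcl12 in all cells in mild against sham (-3.57). Fitting only the compared groups lost Cxcr4 in macrophages/microglia against sham (3.16, 3.50 and 4.71) and in microglia states in severe (3.65), gained it in severe against mild (1.61), gained Ackr3 in all cells in severe against moderate (2.53) and turned it in severe against sham (-0.030). Scaling by library size alone lost Cxcr4 in microglia states in severe (3.36), gained Ackr3 in fibroblasts in moderate against sham (-3.01), and turned Ackr3 in severe against mild in fibroblasts (-0.0042) and in severe against sham in all cells (-0.25). That scaling moved the median of all genes in macrophages/microglia by -0.50 in severe against sham, and the share of higher calls from 63.2% to 15.5%. Keeping doublets gained Ackr3 in fibroblasts in moderate against sham (-2.99) and, in the order of types, turned astrocytes against oligodendrocyte precursors (0.011) and fibroblasts against oligodendrocytes (-0.089) for Cxcr4 and T cells/NK cells against neutrophils (0.30) for Ackr3. A resolution of 0.8 turned astrocytes against B cells for Ackr3 (-2.31), since the cells with its UMIs left the astrocytes. Both were tried on the order after seeing the data. In the order of types, a pseudocount of 10 turned astrocytes against oligodendrocyte precursors for Cxcr4 (0.097), and erythrocytes against oligodendrocyte precursors (0.014) and dendritic cells against oligodendrocytes (0.0043) for Cxcl12. A minimum of 50 cells turned the first (0.53) and B cells against oligodendrocyte precursors for Ackr3 (0.26).

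Same-numbered libraries did not deviate together in every pair (r from -0.24 to 0.25, median 0.0052, in macrophages/microglia, -0.12 to 0.24, median 0.062, in fibroblasts and -0.16 to 0.34, median 0.20, in all cells), and no label ties them, so they were taken to share only a number. A replicate block lost Cxcr4 in microglia states in severe against sham (3.72) and gained Ackr3 in fibroblasts in moderate against sham (-3.06), and changed no other call.

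Leaving out each library in turn changed a call or a direction in these cases. Cxcr4 in macrophages/microglia ran from 2.69 to 3.97 in mild, 3.04 to 4.31 in moderate against sham, 1.09 to 1.45 in severe against moderate and 1.35 to 1.89 in severe against mild. In microglia states it ran from 1.96 to 3.48, 3.64 to 4.85 and 2.93 to 4.36, and in macrophage states from 1.91 to 4.12, 2.29 to 4.50 and 2.96 to 5.17, in mild, moderate and severe against sham. In fibroblasts Cxcl12 ran from -2.05 to 0.92 in mild and -1.10 to 1.26 in moderate against sham, turning without sham 1, and from -0.36 to 1.39 in moderate against mild, turning without mild 1. Ackr3 in fibroblasts ran from -4.00 to -2.45 in moderate against sham, and from -0.25 to 1.20 in severe against mild, turning without mild 2 (-0.15) and without severe 2. In all cells Cxcr4 ran from 1.18 to 3.30, 1.54 to 3.66 and 2.50 to 4.62 in mild, moderate and severe against sham and 1.00 to 1.73 in severe against mild; Cxcl12 from -4.20 to -2.68 in mild and -3.40 to -1.89 in moderate against sham and 1.57 to 3.07 in severe against mild; and Ackr3 from -3.31 to 0.16, -3.30 to -0.54 and -0.78 to 1.98 against sham and -1.42 to 0.80 in moderate against mild. In all cells Ackr3 turned without sham 1 in mild, without sham 2 or severe 1 (-0.29) in severe against sham, and without mild 1 in moderate against mild. Without sham 1, Cxcr4 passed in all cells in mild, moderate and severe against sham and in severe against mild, and Cxcl12 in mild against sham and severe against mild. Without sham 2, Cxcr4 passed in moderate and severe against sham and severe against mild, Cxcl12 in mild and moderate against sham and severe against mild, and Ackr3 in mild and moderate against sham. Infiltrating against lipid-laden macrophages ran from -0.080 to 0.56, turning without moderate 1.

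Genes called ran from 0 to 2268 in mild, 0 to 1368 in moderate and 43 to 2325 in severe against sham in macrophages/microglia over all alternatives, beside 829, 213 and 1012. Levels of Cxcl12 in named immune types, at under 1 CPM, rest on 1 to 31 UMIs each, Ackr3 in B cells (8.26 CPM) rests on 15, and comparisons of endothelial cells were limited to sham and severe.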
